A study of Sus scrofa with 9 samples.

Results

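Multidrug resistance-associated protein 4 (MRP4, the product of the gene ABCC4) was described in the pig spleen gene table by 12 of 28095 loci. They were found by name: every locus whose description contains that protein's name, with or without "-like", was taken, and none was left out. Of the 12 loci, 10 carried only a "-like" or a mixed "-like" description, and 2 carried the plain name. MSTRG.14419 was singled out on measured values: it was selected on its counts after day 30 being far below those at day 30. Its contrasts with day 30 are therefore a description with no test. The other 11 loci were taken by name, but with earlier results of these data known, and they may share reads with MSTRG.14419.

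The libraries came from spleens of Ningxiang pigs, an indigenous Chinese breed, with no treatment or allele named. There were 3 libraries at postnatal day 30, 3 at day 90 and 3 at day 210. The sample names number them 1 to 3 within an age, and nothing states that they came from separate animals, so p-values measure the spread between these libraries. Each library is bulk tissue, in which fewer cells of a type and less RNA per cell cannot be told apart.

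MRP4 is a membrane pump of the ATP-binding cassette (ABC) family, subfamily C, which uses ATP to export organic anions. Its known cargo includes the cyclic nucleotides cAMP and cGMP, prostaglandins, leukotrienes, urate, conjugated steroids and nucleoside drugs. In humans it is found in the membranes of red cells and in platelets, where it moves cyclic nucleotides and nucleotides out of the cytosol or into granules. The spleen stores and removes such cells, and in young mammals it can also form them.

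Counts in genes were 48.9 to 62.1 M per library. Spleen markers were detected: CD79B of B cells lay between 19.1 and 49.2 FPKM, CD3E of T cells between 18.5 and 34.7 FPKM, VCAM1 between 116 and 262 FPKM, and NKX2-5 of the spleen mesenchyme between 4.92 and 12.6 FPKM over the 9 libraries. One of the SLC40A1 loci was at 0 to 0.529 FPKM and the other at 43.3 to 102 FPKM. FPKM, a fragment count scaled to transcript length and library depth, is the scale of all levels given here. Changes are log2 changes of normalised counts, the later age minus the earlier, from edgeR's quasi-likelihood test with Benjamini-Hochberg adjustment over all loci tested. A locus is called at an adjusted p under 0.05.

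The 12 loci lay in few places. On chromosome 11, 10 of them filled 2.37 Mb, from 69406301 to 71776366 in the coordinates of the deposited table, and they stood on both strands. The other 2 were on unplaced scaffolds. MSTRG.14410 (69406301-69499196), MSTRG.14416 (69799859-69827027), MSTRG.14418 (70084392-70129908) and MSTRG.14419 (70607746-70657742) are on the plus strand. The minus strand holds MSTRG.14413 (69576449-69920897), MSTRG.14412 (69970048-69998071), MSTRG.14420 (70289824-70511025) and MSTRG.14421 (71616987-71722700). It also holds 2 loci whose IDs begin with Pig., an inner one (70191196-70213985) and an outer one (71752931-71776366). MSTRG.21994 is at 14525-69936 on the minus strand of Scaffold1289, and MSTRG.22531 at 21896-32185 on the plus strand of Scaffold2954. The table gives whole loci, so exons and introns were not assigned.

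The loci differ in size and in how they meet their neighbours. MSTRG.14413 spans 344449 bases and merges a plain and a "-like" description in 4 transcripts. It contains MSTRG.14416, which runs on the other strand, so reads of these 2 loci cannot be told apart where they overlap, the strand of the libraries not being given. MSTRG.14420 spans 221202 bases in 3 transcripts and is described as isoform X1 of MRP4 itself. MSTRG.14419 spans 49997 bases in 2 transcripts, 96720 bases beyond MSTRG.14420 and overlapped by no other locus. MSTRG.14421 and the outer Pig. locus stand apart from the rest, 959244 bases further on. Loci with the same description may share reads between near-identical copies, so the count of any single "-like" locus is uncertain.

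**Figure D1:**
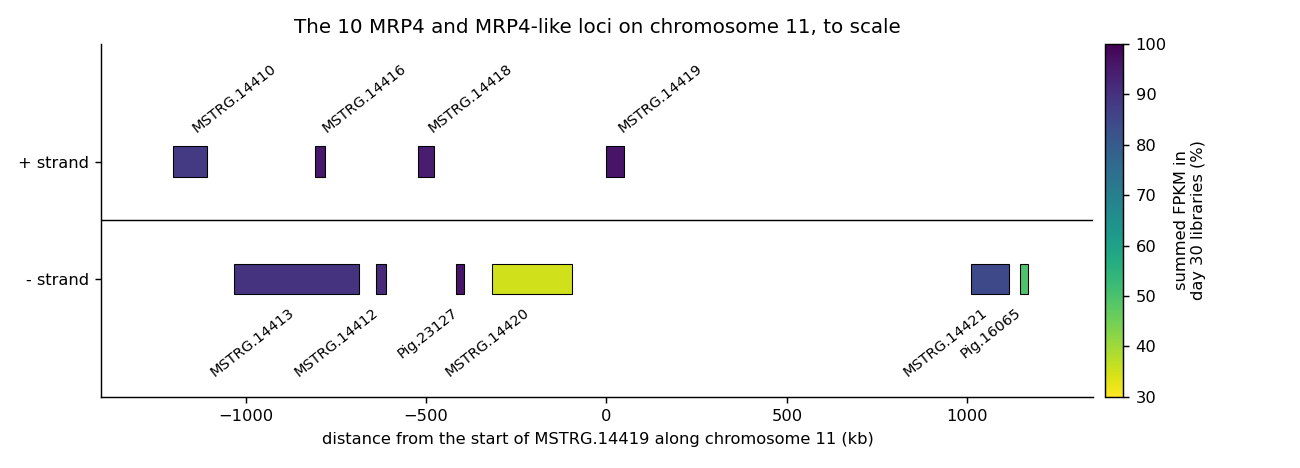
The 10 loci on chromosome 11, drawn to scale by distance in kb from the start of MSTRG.14419, with the plus strand above and the minus strand below the line. Colour gives the percentage of a locus' FPKM, summed over the 9 libraries, that came from the day 30 libraries: it is 35.1% at MSTRG.14420, 49.6% at the outer (right-hand) Pig. locus and 84.5% to 96.4% at the other 8.

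The nearest named loci on either side were measured for comparison. On the left these were SOX-21, a transcription factor of neural tissue, with 0 to 0.0972 FPKM, the membrane protein GPR180 with 2.95 to 4.57 FPKM, and dTDP-D-glucose 4,6-dehydratase with 2.13 to 3.24 FPKM. On the right were P58IPK, a chaperone partner of the endoplasmic reticulum, with 2.98 to 5.45 FPKM, UDP-glucose:glycoprotein glucosyltransferase 2 with 0.347 to 0.995 FPKM, and heparan-sulfate 6-O-sulfotransferase 3 with 0 to 0.0714 FPKM. None of the 6 was called between any pair of ages, tested with no minimum. In the order of Sscrofa11.1, the RefSeq pig assembly, ABCC4 likewise lies after SOX21 and before DNAJC3, which encodes P58IPK, and UGGT2.

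MSTRG.14419 had the highest mean of the 12 loci at day 30. Its FPKM was 10.7, 2.49 and 6.12 at day 30, then 0.203, 0.198 and 0.230 at day 90, and 0.0370, 0.0584 and 0.0341 at day 210. The 3 ages did not overlap, and the day 30 libraries differed among themselves more than any later ones. In reads it had 2704, 624 and 1468 at day 30, then 52, 54 and 60 at day 90, and 10, 13 and 8 at day 210. The contrast with day 30 is the one the locus was selected on.

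The mean of MSTRG.14419 was 0.211 ± 0.0172 FPKM at day 90, against 6.45 ± 4.13 FPKM at day 30 (SD, n = 3 each), a log2 change of -4.70 ± 0.50 (SE). At day 210 the mean was 0.0431 ± 0.0133 FPKM (SD, n = 3), a log2 change of -7.10 ± 0.58 (SE) against day 30. The contrast of day 210 with day 90 was not the one the locus was selected on, but counts of both ages entered the choice. The p-values of this contrast are thus not independent of that choice. In it the log2 change of MSTRG.14419 was -2.40 ± 0.55 (SE), lower in 3 of 3 libraries. The edgeR adjusted p was 0.0980, and 0.107 with no minimum, both of which missed the threshold. With the minimum, leaving out the second day 30 library gave an edgeR adjusted p of 0.0414 and leaving out the first gave 0.0497. Leaving out any other library gave 0.123 to 0.235, all of which missed the threshold. DESeq2's Wald test gave 0.000113.

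**Figure D2:**
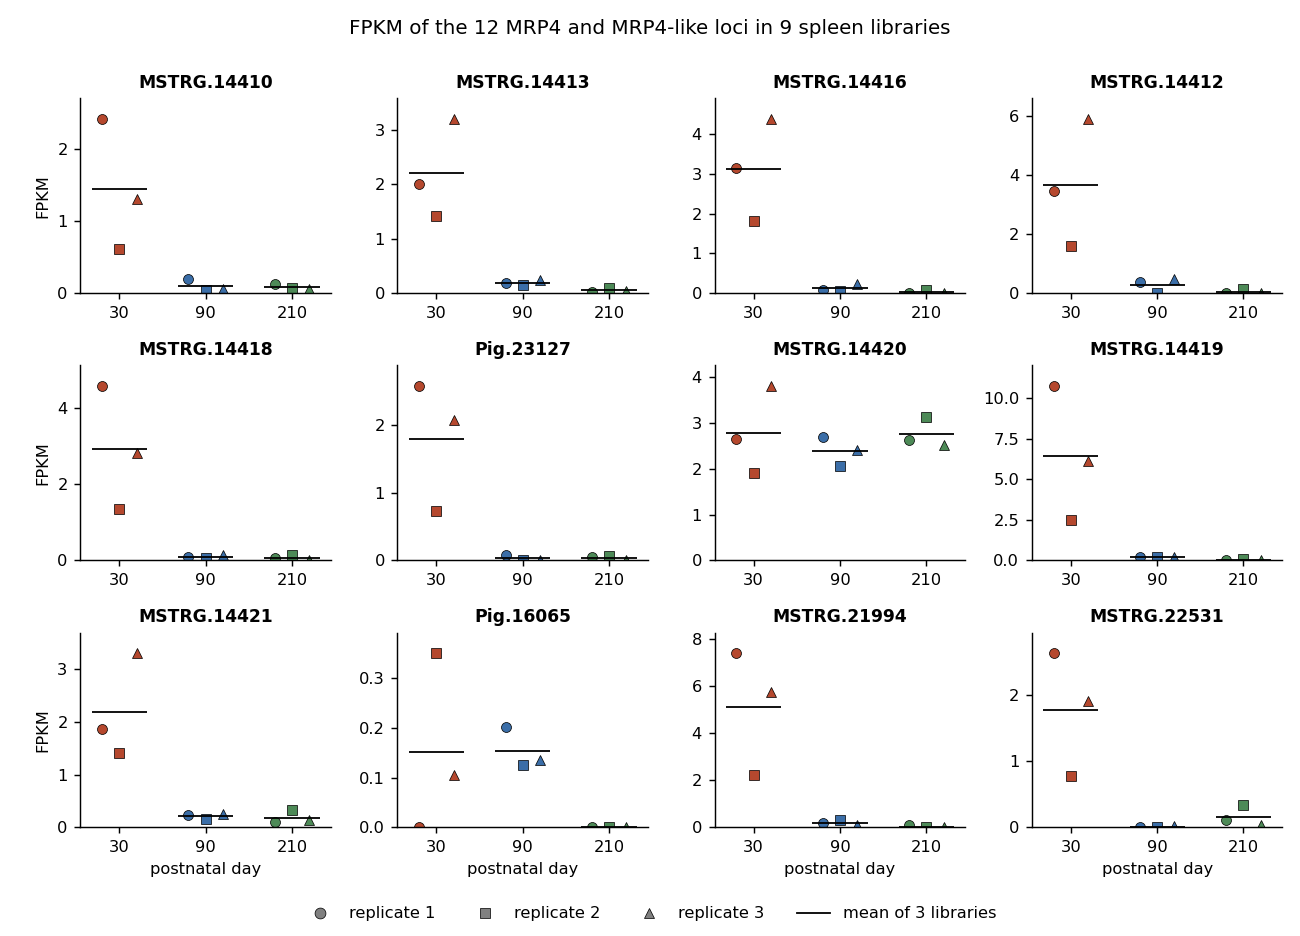
FPKM of each of the 12 loci in the 9 libraries, by postnatal day, each panel on its own linear axis from 0. Symbols are the replicate numbers and the line is the mean of 3 libraries: MSTRG.14420 stays between 1.90 and 3.80 FPKM at every age, while MSTRG.14419 is at 2.49 to 10.7 FPKM at day 30 and at most 0.230 FPKM later.

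The "-like" loci were low after day 30 together. In CPM (counts scaled to library size), every day 90 library and every day 210 library was below every day 30 library in 9 of the 11 loci other than MSTRG.14419, and the exceptions in both comparisons were MSTRG.14420 and the outer Pig. locus. Of all 28095 loci, 14.8% had every day 90 library and 12.1% every day 210 library below every day 30 library. Only 6 of the 12 reached the mean of 1 FPKM required in the main test, 5 of these through their day 30 libraries, so all were also tested with no such minimum. There, of the 11 loci other than MSTRG.14419, 7 fell at day 90 and 7 at day 210 against day 30, and none rose. For comparison, 2.21% of all loci fell and 1.19% rose at day 90, and 2.23% fell and 1.41% rose at day 210, in the same fits. With the minimum, 4.02% of 19264 loci fell and 2.06% rose at day 90, and 3.7% fell and 2.55% rose at day 210. The libraries of day 30 are shared by both comparisons. The family was followed with the fall of MSTRG.14419 known, and copies may share reads. The 7 of 11 are thus not independent of that choice.

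The count of 7 at day 90 depended on which libraries were kept. Leaving out day 90 replicate 1, 2 or 3 gave a count of 1, 0 or 3, while the calls over all loci, in either direction, were 109, 128 or 322 in the same fits, against 954 with every library. Leaving out day 30 replicate 1 gave 4 (267 over all loci), and every other library 6 to 8 (250 to 1249). At day 210 the count was 4 when day 30 replicate 1 was left out and 5 to 8 for any other library, with 323 and 299 to 797 calls over all loci, against 1024 with every library. With a replicate block it was 4 at both ages, with 421 calls over all loci at day 90 and 414 at day 210.

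**Figure D3:**
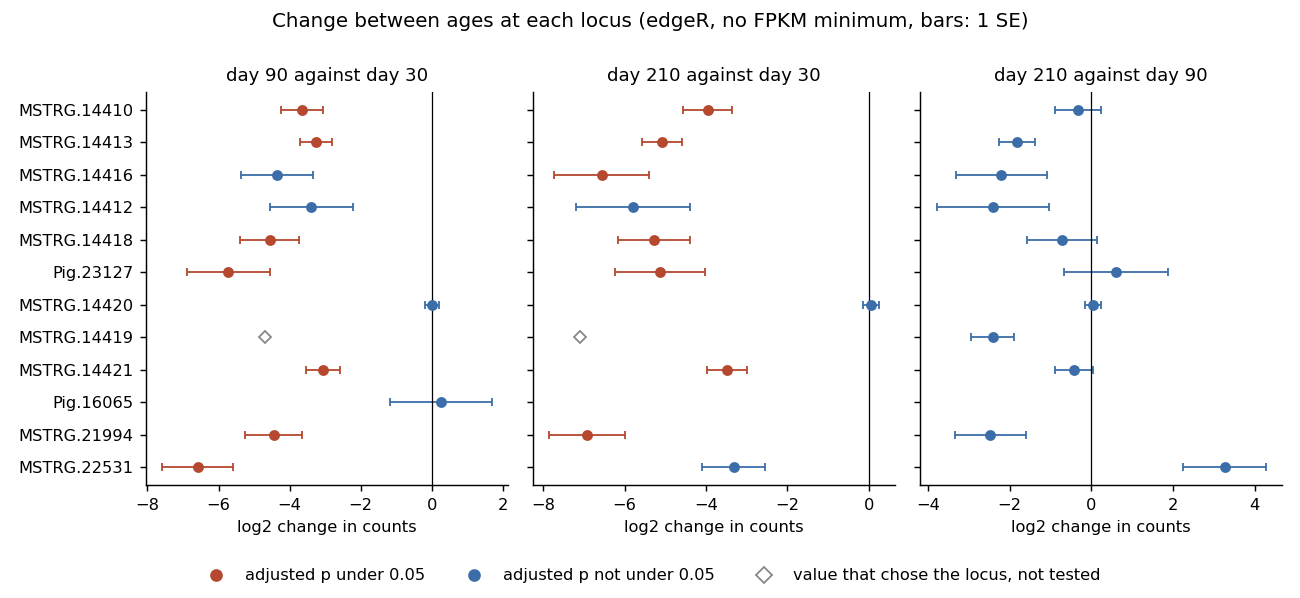
Log2 change of counts at the 12 loci for 3 pairs of ages, from the edgeR fit with no FPKM minimum, with bars of 1 SE. Red marks loci called at an adjusted p under 0.05, 7 at day 90 and 7 at day 210 against day 30, and open grey diamonds mark the values that chose MSTRG.14419. The outer (lower) Pig. locus is left out where its day 210 libraries are all at 0.

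In 6 loci the first day 30 library was the highest: MSTRG.14419, MSTRG.14418, MSTRG.21994, MSTRG.14410, the inner Pig. locus and MSTRG.22531. MSTRG.21994, the scaffold locus with the second highest mean at day 30, had 7.41, 2.24 and 5.75 FPKM at day 30, then 0.197, 0.308 and 0.0788 FPKM at day 90, and 0.0818, 0.0206 and 0 FPKM at day 210. In FPKM the 3 ages overlapped only between day 90 and day 210, while in CPM every day 210 library was below every day 90 library. Tested with no minimum, as are all changes against day 30 of the loci that follow up to MSTRG.14421, it fell by 4.45 ± 0.80 on the log2 scale at day 90 (SE, edgeR adjusted p = 0.0237) and fell by 6.92 ± 0.93 at day 210 (adjusted p = 0.00950), each against day 30. The day 90 call was lost when day 30 replicate 1 or any day 90 library was left out (edgeR adjusted p = 0.0660 to 0.0942) and with the block (0.0506).

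MSTRG.14418, on the plus strand inside the undescribed locus MSTRG.14417, had 4.56, 1.35 and 2.83 FPKM at day 30, then 0.0840, 0.0685 and 0.136 FPKM at day 90, and 0.0645, 0.131 and 0 FPKM at day 210. Every later library was far below the lowest day 30 library. Against day 30 it fell by 4.57 ± 0.84 at day 90 (edgeR adjusted p = 0.0248) and fell by 5.28 ± 0.88 at day 210 (adjusted p = 0.0176). The day 90 call was lost when day 30 replicate 1 or any day 90 library was left out (0.0627 to 0.0991), the day 210 call when day 30 replicate 1 was (0.0537), and both with the block (0.0647 and 0.0525). With limma on log2(FPKM + 0.1), where the minimum was kept, the p was 0.0887 at day 90 and 0.0990 at day 210.

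MSTRG.14410, the first locus of the stretch, had 2.40, 0.607 and 1.3 FPKM at day 30, then 0.195, 0.0486 and 0.0658 FPKM at day 90, and 0.129, 0.0742 and 0.0617 FPKM at day 210. Its day 90 and day 210 libraries overlapped. It fell by 3.64 ± 0.59 at day 90 (edgeR adjusted p = 0.0182) and fell by 3.96 ± 0.60 at day 210 (adjusted p = 0.0131), tested with no minimum. Leaving out day 90 replicate 2 or 3 gave 0.0680 or 0.0617 at day 90, and leaving out day 210 replicate 2 gave 0.0536 at day 210.

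The 2 smallest of this set held few reads. The inner Pig. locus had 118, 34 and 91 reads at day 30, then 4, 0 and 0 reads at day 90, and 3, 3 and 0 reads at day 210. It fell by 5.73 ± 1.16 at day 90 (edgeR adjusted p = 0.0335) and fell by 5.13 ± 1.11 at day 210 (adjusted p = 0.0399), and neither call held when any single library of the ages compared was left out (adjusted p = 0.0605 to 0.110 and 0.0721 to 0.133) or with the replicate block (0.0598 and 0.0769). At so few reads the size of the change is poorly known.

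MSTRG.22531, on the second scaffold, had 125, 37 and 87 reads at day 30, then 1, 0 and 1 read at day 90, and 6, 14 and 2 reads at day 210. Unlike the others of the set it had more reads at day 210 than at day 90 in every library. Its summed reads were 114-fold lower at day 90 than at day 30 (95% counting interval 31.4 to 950), with an edgeR adjusted p of 0.0157. Leaving out day 90 replicate 1 or 2 gave 0.0637 or 0.0591. At day 210 its log2 change against day 30 was -3.32 ± 0.78, which missed the threshold (adjusted p = 0.0517, and 0.00122 by DESeq2). Between day 210 and day 90 the reads were 11.1-fold higher (95% counting interval 2.74 to 97.8), with an adjusted p of 0.256. Intervals of this kind cover counting error only.

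In 4 of the other "-like" loci the third day 30 library was the highest. MSTRG.14412 had 3.47, 1.59 and 5.88 FPKM at day 30, then 0.378, 0 and 0.472 FPKM at day 90, and 0, 0.159 and 0 FPKM at day 210. It rests on 401 reads over day 30, 34 over day 90 and 6 over day 210. Its log2 change against day 30 was -3.39 ± 1.18 at day 90 and -5.79 ± 1.40 at day 210, with edgeR adjusted p of 0.157 and 0.0557 that missed the threshold. DESeq2 gave 0.242 and 0.0208. With the minimum, which this locus reached through its day 30 libraries, edgeR gave 0.0786 and 0.0292.

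MSTRG.14416, inside MSTRG.14413, had 3.15, 1.82 and 4.37 FPKM at day 30, then 0.0805, 0.0523 and 0.231 FPKM at day 90, and 0, 0.0903 and 0 FPKM at day 210. Its log2 change at day 90 against day 30 was -4.36 ± 1.02, with an edgeR adjusted p of 0.0520 that missed the threshold. DESeq2 gave 0.0302, and edgeR with the minimum, which this locus too reached through its day 30 libraries, gave 0.0252. At day 210 it fell by 6.57 ± 1.18 (edgeR adjusted p = 0.0225), a call lost when day 30 replicate 1 was left out (0.0574) and with the block (0.0552).

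MSTRG.14413, the long merged locus around it, had 2.0, 1.43 and 3.19 FPKM at day 30, then 0.183, 0.146 and 0.241 FPKM at day 90, and 0.0324, 0.104 and 0.0459 FPKM at day 210. The 3 ages did not overlap. It fell by 3.27 ± 0.45 at day 90 (edgeR adjusted p = 0.0118) and fell by 5.09 ± 0.49 at day 210 (adjusted p = 0.00348), both against day 30 and tested with no minimum. Between day 210 and day 90 the change was -1.82 ± 0.44, with an adjusted p of 0.149 by edgeR and 0.00140 by DESeq2. Leaving out day 90 replicate 1 or 2 gave 0.0531 or 0.0521 at day 90.

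MSTRG.14421, on the far side of the gap, had 1.86, 1.41 and 3.30 FPKM at day 30, then 0.243, 0.158 and 0.254 FPKM at day 90, and 0.0974, 0.320 and 0.134 FPKM at day 210. Its later libraries lay below the day 30 ones and overlapped each other. Of the called loci it changed least. It fell by 3.05 ± 0.48 at day 90 (edgeR adjusted p = 0.0168) and fell by 3.48 ± 0.49 at day 210 (adjusted p = 0.0108). Leaving out day 90 replicate 1 or 2 gave 0.0701 or 0.0688 at day 90.

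MSTRG.14420, described as MRP4 isoform X1, was called in no comparison. It had 2.64, 1.90 and 3.80 FPKM at day 30, then 2.69, 2.05 and 2.40 FPKM at day 90, and 2.64, 3.12 and 2.51 FPKM at day 210. The 3 ages overlapped throughout. It is also the best measured member, with 1231 to 2359 reads in each library. The log2 change was -0.0048 at day 90 (95% interval -0.46 to 0.45, edgeR adjusted p = 0.992) and 0.05 at day 210 (95% interval -0.41 to 0.51, adjusted p = 0.909), both against day 30. Changes beyond these intervals were thus not seen, but smaller ones could not be detected.

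The outer Pig. locus, the other one with the plain name, was near the limit of detection. It had 0, 14 and 4 reads at day 30, then 8, 6 and 6 reads at day 90, and 0 reads in all 3 libraries of day 210. With a floor of 3 reads over the group, its reads at day 210 were at least 5.45-fold lower than at day 30 and at least 6.58-fold lower than at day 90. It was called in no comparison (edgeR adjusted p = 0.193 and 0.337 for these, and 0.961 for day 90 against day 30).

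No locus of the 12 was called between day 210 and day 90 by edgeR with no minimum, where 0.235% of 28095 loci were called, against 0.535% of 19264 with the minimum. At an unadjusted p under 0.05 there were 5 of the 12, against 11.7% of all loci, and DESeq2 with no minimum called 2, against 3.17% of all loci. In CPM, every day 210 library was below every day 90 library at 4 of the 12 loci, the outer Pig. locus with its 0 reads among them, and at MSTRG.22531 every one was above. Of all loci, 8.08% lay below in this way and 9.05% above.

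The order of the loci changed with age. At day 30 the means ran from MSTRG.14419 (6.45 ± 4.13 FPKM) and MSTRG.21994 (5.13 ± 2.64 FPKM) down to MSTRG.14410 (1.44 ± 0.906 FPKM) and the outer Pig. locus (0.152 ± 0.180 FPKM), and MSTRG.14420 was sixth with 2.78 ± 0.958 FPKM (SD, n = 3 each). Each neighbour in that order overlapped the next in range, except the outer Pig. locus, which was below all. At day 90 and day 210 MSTRG.14420 stood alone at the top, with 2.38 ± 0.317 FPKM and 2.75 ± 0.323 FPKM. The next were MSTRG.14412 with 0.283 ± 0.250 FPKM at day 90 and MSTRG.14421 with 0.184 ± 0.119 FPKM at day 210. Below the top, all neighbours overlapped at both ages.

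The make-up of the reads over the 12 loci changed with it. MSTRG.14420 took 18.2%, 29.7% and 26.4% of them at day 30, then 82.3%, 83.9% and 80.8% at day 90, and 92.5%, 89.4% and 94.5% at day 210. For day 30 replicate 1 the 95% Wilson interval was 17.4% to 19.0%, and for day 210 replicate 3 it was 93.2% to 95.5%. The ages did not overlap. The other 11 loci held 2909 to 7776 reads per library at day 30, then 275 to 384 at day 90, and 84 to 209 at day 210. Their summed level was 30.8 ± 14.0 FPKM at day 30, then 1.61 ± 0.435 FPKM at day 90 and 0.759 ± 0.538 FPKM at day 210 (SD, n = 3 each). As MSTRG.14419 is among the 11, this is a description.

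**Figure D4:**
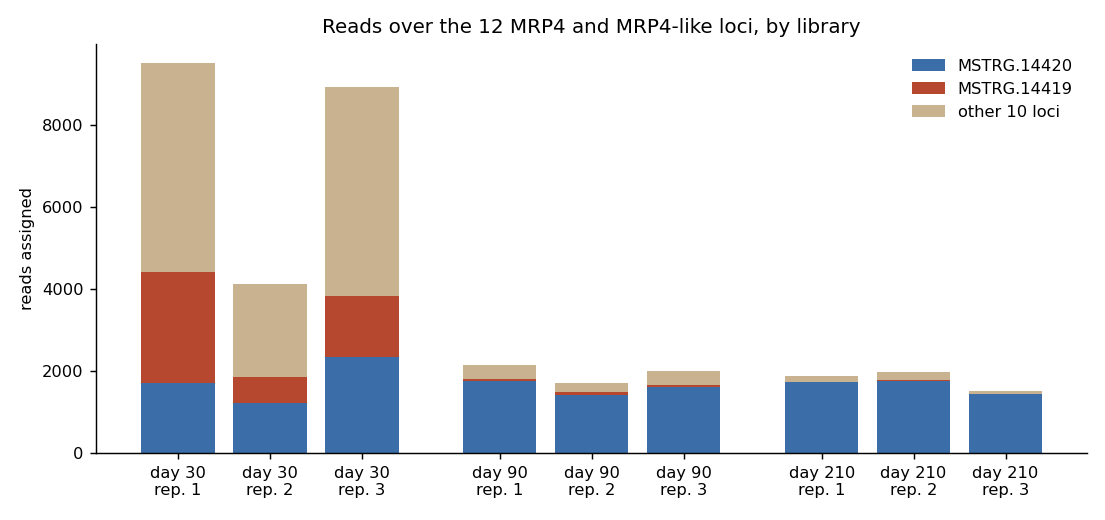
Reads assigned to the 12 loci in each library, stacked as MSTRG.14420 (blue, bottom), MSTRG.14419 (red) and the other 10 loci (sand). The total is 4140 to 9503 reads at day 30, 1706 to 2145 at day 90 and 1520 to 1976 at day 210, and the blue part alone keeps its height.

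Loci with no description that overlap a member were low at the later ages too. MSTRG.22532, inside MSTRG.22531 and with no strand, had 698, 116 and 361 reads at day 30, then 13, 8 and 8 at day 90, and 4, 4 and 16 at day 210. It fell by 5.19 ± 0.78 at day 90 (edgeR adjusted p = 0.0156) and fell by 5.39 ± 0.80 at day 210 (adjusted p = 0.0119), against day 30. MSTRG.14411, inside MSTRG.14410, fell at both ages as well (edgeR adjusted p = 0.0311 and 0.0423). MSTRG.14417, around MSTRG.14418, fell at day 210 (0.0312) and missed the threshold at day 90 (0.0555). MSTRG.14422, inside MSTRG.14421, had 0 reads in all 6 later libraries against 22, 21 and 53 at day 30, and was not called (0.0538 and 0.0523). MSTRG.14414, inside MSTRG.14413, had 63, 0 and 11 reads at day 30 and was not called either (0.180 and 0.319).

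The loci whose levels over the 9 libraries were most like those of MSTRG.14419 were found by Pearson's r of log2(FPKM + 1). The 10 highest were MSTRG.14418 (r = 0.998), ERMAP, an erythroid membrane protein (0.998), ankyrin-1, which ties the red cell membrane to its skeleton (0.997), CREB3L3, a liver transcription factor (0.996), KLF1, the erythroid transcription factor (0.996), the Kell blood group glycoprotein (0.995), TRIM10, needed for terminal red cell maturation in mice (0.995), MSTRG.21994 (0.995), the band 3 anion exchanger SLC4A1 (0.993), and the transporter ABCB6, which carries a blood group antigen in humans (0.990). The 9 libraries share the split between day 30 and the later ages, so r is a description. By Spearman's rho, only 2 of these 10 were among the 10 highest.

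For MSTRG.14418 and MSTRG.21994 the lists were alike, with ERMAP, TRIM10 and MSTRG.14419 in both (r of at least 0.992), and SOX-6, a transcription factor of erythroid maturation in mice, also near MSTRG.21994 (0.992). Of the 4 "-like" loci that were highest in replicate 3, only MSTRG.14416 and MSTRG.14412 reached the minimum for this comparison. MSTRG.14416 was nearest to MSTRG.14412 (0.986), to CLEC1B, the platelet receptor CLEC-2 (0.984), to LY6G6F, found on platelets (0.981), to ADAM11 (0.979) and to MSTRG.21994 (0.977). MSTRG.14412 was also near CLEC1B (0.970), ARL11 (0.970), CPT1A, which brings fatty acids into mitochondria (0.969), and a protegrin-3-like peptide of neutrophils (0.962). MSTRG.14420 had weaker likeness, the highest to a zinc finger protein (0.926) and to RalGPS1 (0.915).

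The day 30 libraries differed in which loci were high. In CPM, replicate 1 over replicate 3 was above 1 in 6 of the 11 MRP4 loci with at least 30 reads at day 30, from 1.33 at the inner Pig. locus, 1.38 at MSTRG.21994 and 1.47 at MSTRG.22531 to 1.99 at MSTRG.14410. It was below 1 in the other 5, from 0.608 at MSTRG.14421 to 0.748 at MSTRG.14420 and 0.775 at MSTRG.14416. Of the erythroid markers it was above 1 in 12 of 12 (1.41 to 2.81), of the platelet markers in 9 of 9 (1.03 to 1.47), and of the neutrophil granule markers in 2 of 7 (0.449 to 1.26). A ratio above 1 was not particular to blood cell markers. It was seen in 7 of 9 other subfamily C loci, 13 of 25 loci of other ABC families and 15 of 23 cyclic nucleotide loci. For prostanoid loci it was 10 of 16, and for spleen markers 4 of 9. Replicate 2 was the lowest of the 3 at all 11 MRP4 loci, at all 12 erythroid and all 7 neutrophil markers, and at 8 of 9 platelet markers. It was the lowest at 4 of 9 other subfamily C loci, 10 of 25 loci of other ABC families and 8 of 23 cyclic nucleotide loci. For prostanoid loci it was 3 of 16, and for spleen markers 1 of 9. With 1 library per value there is no test.

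**Figure D5:**
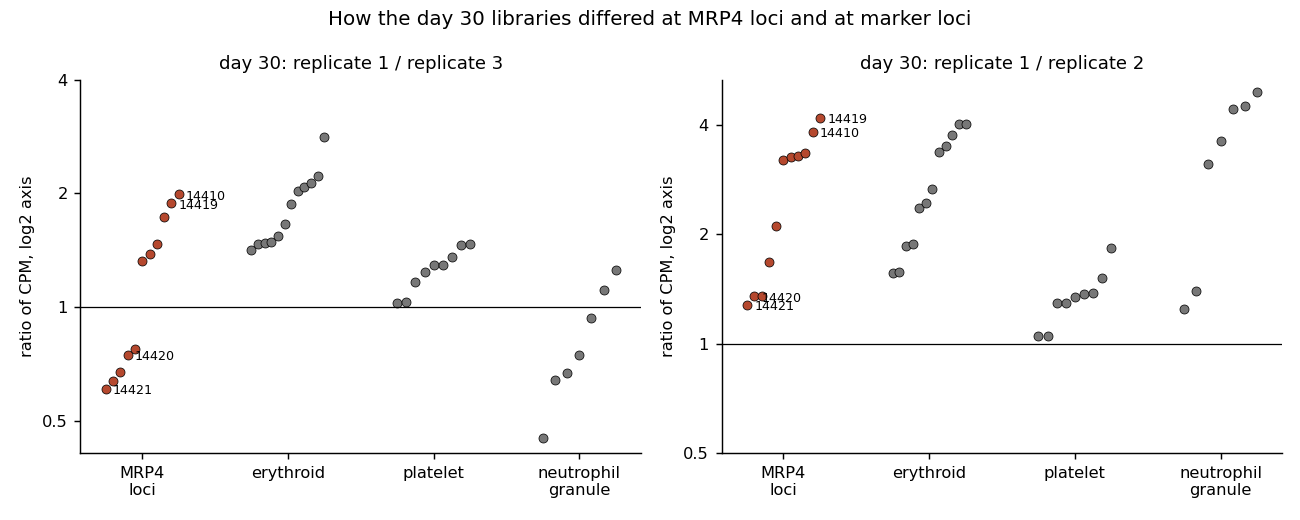
Ratio of CPM between day 30 libraries, replicate 1 over 3 (left) and 1 over 2 (right), on a log2 axis, 1 point per locus. On the left the 11 MRP4 loci split into 6 above and 5 below 1, while all 12 erythroid markers lie above it.

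Marker lists of cell types differed in how they changed, and the erythroid and platelet ones were lower at both later ages. Of the 9 tested spleen marker loci, 2 rose and 1 fell at day 90, and 3 rose and 1 fell at day 210, against day 30. The 12 erythroid markers measured, all of them tested, summed to 91.2 to 243 FPKM at day 30, 14.8 to 20.7 FPKM at day 90 and 12.6 to 21.6 FPKM at day 210. Of these, 10 fell at day 90 and 11 at day 210 against day 30, with a median log2 change of -3.57 and -4.15, against 0.00 for all loci. In this fit 4.02% of all loci fell and 2.06% rose at day 90, and 3.7% fell and 2.55% rose at day 210. Ankyrin-1 had 0.113 to 0.189 FPKM at day 90 against 3.20 to 12.4 FPKM at day 30, and SLC4A1 0.574 to 0.984 FPKM against 10.8 to 44.8 FPKM. None of the 12 was at 0 in a whole age. The 9 platelet markers summed to 52.9 to 73.9 FPKM at day 30, 16.6 to 19.6 FPKM at day 90 and 13.9 to 15.7 FPKM at day 210, and 5 of the 6 tested fell at each later age. The receptor GP1BA fell by 2.18 ± 0.27 at day 90 and fell by 3.75 ± 0.30 at day 210 (edgeR adjusted p = 0.00782 and 0.00116). Ankyrin-1, SLC4A1 and GP1BA averaged under 1 FPKM at both later ages and reached the minimum of this fit through day 30. The counts of erythroid and platelet loci called are therefore a description.

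The 7 neutrophil granule markers summed to 8.69 to 48.3 FPKM at day 30, 0.484 to 3.13 FPKM at day 90 and 4.91 to 9.17 FPKM at day 210. Of the 5 tested, 3 fell at day 90 and 2 at day 210, against 4.02% and 3.7% of all loci. Each of the neutrophil calls was lost when some single library was left out. The protegrin loci PG2 and PG3 also reached the minimum through day 30, so these counts too are a description. S100A12 was at 0 in all 3 libraries of day 90. The 5 mast cell loci summed to 12.8 to 21.7 FPKM at day 30, 8.95 to 14.8 FPKM at day 90 and 9.14 to 12.5 FPKM at day 210, and none of the 3 tested was called, 1 of the tryptase loci being at 0 at both later ages. MSTRG.14419 was 4.41%, 2.74% and 4.35% of the erythroid sum at day 30, then 1.37%, 0.960% and 1.37% at day 90, and 0.171%, 0.464% and 0.253% at day 210. As MSTRG.14419 was chosen for its low counts after day 30, these shares are a description. The part of these cell types in the levels of the MRP4 loci was not tested.

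The other members of subfamily C were 12 loci, of which 6 were tested. Of all loci in this fit, 4.02% fell and 2.06% rose at day 90, and 3.7% fell and 2.55% rose at day 210, against day 30. With 6 loci the count called cannot be set against such shares. Only ABCC3, an exporter of bile acids and glucuronides, was called. It had 3.25, 2.77 and 2.35 FPKM at day 210, against 4.44, 3.67 and 4.48 FPKM at day 30. It fell by 0.54 ± 0.12 on the log2 scale (edgeR adjusted p = 0.0305), but the p was above 0.05 when any of 7 libraries was left out (at most 0.0986), in a fit on the ages compared alone, with the block and with limma. The levels of the others over the 9 libraries were as follows. The glutathione conjugate exporter ABCC1 had 7.71 to 12 FPKM at one locus and 1.09 to 2.13 FPKM at the other, and ABCC5, which like MRP4 exports cyclic nucleotides, had 5.03 to 18.5 FPKM. ABCC9, a subunit of potassium channels, had 6.04 to 9.68 FPKM, and ABCC10 had 4.18 to 6.82 FPKM. ABCC2, the 2 ABCC6 loci, CFTR, ABCC8 and ABCC11 had at most 0.700 FPKM in any library.

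In the other ABC families 35 loci matched and 18 were tested. At day 90, 1 rose and 2 fell, and at day 210, 1 rose and 1 fell, against day 30. Of all loci, 2.06% rose and 4.02% fell at day 90, and 2.55% rose and 3.7% fell at day 210. ABCB6, a porphyrin transporter, had 0.819, 0.782 and 0.989 FPKM at day 90, against 5.25, 2.38 and 3.34 FPKM at day 30, and fell by 1.85 ± 0.32 (edgeR adjusted p = 0.0145, and above 0.05, at most 0.0624, when day 90 replicate 1 or 2 was left out). At day 210 it fell by 2.13 ± 0.32 (0.00994). ABCB6 averaged under 1 FPKM at both later ages and reached the minimum of this fit through day 30. Its changes, and the counts of this list that include it, are therefore a description. ABCG2, which exports urate and porphyrins, fell by 0.90 ± 0.14 at day 90 (0.0121). ABCA5 rose by 1.02 ± 0.18 at day 210 (edgeR adjusted p = 0.0173, and above 0.05, at most 0.0660, when day 30 replicate 1 or 2 was left out).

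Genes that make, break down, carry or respond to the cargo of MRP4 were counted in the same fit. Of 19 tested cyclic nucleotide loci, 5 fell at day 90 and 3 at day 210 against day 30, and none rose. Of all loci, 4.02% fell and 2.06% rose at day 90, and 3.7% fell and 2.55% rose at day 210. At these shares, that none of 19 rose says little. PDE3A, which hydrolyses cAMP in platelets and muscle, had 4.33, 3.66 and 3.47 FPKM at day 90, against 8.12, 9.16 and 9.34 FPKM at day 30. It fell by 1.01 ± 0.13 (edgeR adjusted p = 0.00782) and fell by 1.37 ± 0.13 at day 210 (0.00234). The adenylate cyclase ADCY6 fell by 1.08 ± 0.15 at day 90 (0.00852) and fell by 1.09 ± 0.15 at day 210 (0.00673), and the cGMP phosphodiesterase PDE5A fell by 1.02 ± 0.16 (0.0127) and fell by 0.90 ± 0.16 (0.0181, and 0.0614 when day 30 replicate 1 was left out). The cyclase ADCY5 fell at day 90 by 0.72 ± 0.15 (0.0260, and above 0.05, at most 0.0893, when any library of the ages compared was left out).

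Of 13 tested prostanoid and leukotriene loci, 3 fell at each later age against day 30, and none rose. Of all loci, 4.02% fell and 2.06% rose at day 90, and 3.7% fell and 2.55% rose at day 210. SLCO2A1, which takes prostaglandins up into cells, had 7.08, 4.46 and 5.74 FPKM at day 210, against 13.9, 10.3 and 13.4 FPKM at day 30, and fell by 1.07 ± 0.16 (edgeR adjusted p = 0.0106). It fell by 0.75 ± 0.16 at day 90 (0.0319, and above 0.05, at most 0.121, when any library of the ages compared was left out). LTA4H, of leukotriene synthesis, fell by 0.81 ± 0.13 at day 210 (0.0109). None of the 6 tested loci of MRP4 partners and regulators was called at any age, among them MPP1, a membrane scaffold of red cells, with 12.8 to 23.2 FPKM, and SNX27, a sorting nexin, with 10.3 to 17.6 FPKM.

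Circular RNAs were a further readout at these places, one that rests on few reads. The protocol text speaks of poly(A) selection of the RNA. Of the circRNAs in the deposited table, 10 overlapped a member by coordinates and 7 of these lay in MSTRG.14420. Together the 7 had 4, 4 and 6 back-splice junction reads at day 30, then 9, 3 and 4 at day 90, and 5, 5 and 3 at day 210. Per 10000 junction reads of the library this was 3.86 ± 0.896 at day 30, 3.68 ± 1.96 at day 90 and 3.45 ± 0.837 at day 210 (SD, n = 3 each). The differences from day 30 were -0.180 at day 90 and -0.410 at day 210, with exact two-sided permutation p of 0.8 and 0.5, where 3 libraries against 3 cannot go below 0.1. Most came from circRNA697 (70460141-70466981, minus strand, 3 exons), with 31 of the 43 junction reads. MSTRG.14413 and MSTRG.14419 had 1 junction read each, the read in MSTRG.14419 in a day 210 library. MSTRG.14418 was overlapped by circRNA8367 (70016424-70087237) with 2 junction reads, which is typed as intergenic and lies mostly outside the locus. The other 8 members had none.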

How the data were processed

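RNA of Ningxiang pig spleens was sequenced in 9 libraries, 3 per age. The authors deposited read counts and FPKM (fragments scaled to length and depth) for 28095 assembled loci, and for circRNAs junction read counts with a depth-scaled signal (SRPBM), which was not used. HISAT2 2.0, StringTie 1.3.0 and Bowtie 0.12.2 are named in the submitters' processing notes. The notes also name a mouse build, while the coordinates are those of a pig assembly that is not given in the sources used here, as are the counting tool and the strand. The protocol text speaks of adipose tissue and of poly(A) selection, while the tissue label says spleen.

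Counts per library were 48.9 to 62.1 M. Main test: edgeR 4.0.16 quasi-likelihood (R 4.3.3), TMM factors, 1 mean per age over all 9 libraries, only the 19264 loci averaging 1 FPKM or more, Benjamini-Hochberg adjustment, threshold 0.05. The SE is the log2 change divided by the square root of the test's F. The test was checked on simulated data with 200 changed loci. Alternatives were DESeq2 1.42.0, limma 3.58.1 on log2(FPKM + 1) or log2(FPKM + 0.1), RLE factors, no minimum (printed for changes of the "-like" loci against day 30, combined with leaving out libraries, DESeq2, RLE and the block after seeing the data), filterByExpr, the ages compared alone, a replicate block and leaving out each library. Permutation tests used scipy 1.17.1. Intervals and floors (3 reads) cover counting error only.

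The members and lists were chosen with earlier results of these data known. Named are every member, every other subfamily C locus, up to 4 loci of each list with the smallest p, 3 neighbours a side, and the loci most like each member that reached 1 FPKM. Lists were matched by description, using loci with a single description. Replicates of an age differed by more than counting noise (median chi-square 5.27 to 16.8 over pairs). Names from Sscrofa11.1 were used for gene order only.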

Additional observations from a re-analysis of the deposited data

How the results depend on the processing

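Over the 12 loci, 738 log2 changes were recomputed: 621 kept their direction and side of the threshold, 77 lost the call, 8 gained one, 24 changed sign and 8 values of MSTRG.14419, given with no test, moved.

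Of all loci, 1171 were called at day 90 and 1203 at day 210 against day 30, and 103 at day 210 against day 90. DESeq2 called 2424, 2300 and 801, the fit with a replicate block 582, 531 and 43, and leaving out 1 library 280 to 1556, 342 to 1053 and 7 to 139. limma on log2(FPKM + 0.1) called 770 and the ages compared alone 499 at day 210 against day 30, and no minimum 66 at day 210 against day 90. Calls were higher in 33.8%, 40.8% and 65.0% of cases, but in 7.38%, 22.9% and 88.5% by limma on log2(FPKM + 1), which moved the median of all loci by -0.15 at day 90 against day 30 and 0.11 at day 210 against day 90.

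Of the 5 MRP4 loci other than MSTRG.14419 that reached the minimum, 3 were called at day 90, 4 at day 210 against day 30, and of all 6 that reached it, 0 between the later ages. As 4 of the 5 reached it only through their day 30 libraries, the counts against day 30 support nothing. Of the same 5, limma on log2(FPKM + 0.1) called 1 and 2 against day 30. Other fits also tested members below the minimum, so their counts are of a larger set. No minimum called 7 and 7 of 11, and filterByExpr called 8 and 9. In the filterByExpr fit, 712 and 708 of all 24345 loci fell. With the minimum, DESeq2 called 1 between the later ages. Leaving out 1 library, also with the minimum, gave 0 to 3 at day 90 against day 30 and 0 to 1 between the later ages. By Spearman's rho 2 of the 10 loci most like MSTRG.14419 were shared. The sample names do not say whether equal replicate numbers pair the libraries. Same-numbered libraries correlated in their deviations from the age means by -0.0688 to 0.0985. Such values cannot show that the libraries were not paired, and the block is given as an alternative only.

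The sign changed at values near 0. At MSTRG.14420 the change at day 90 against day 30 was 0.0057 with no minimum, 0.0062 with filterByExpr and 0.012 with the replicate block, and leaving out 1 library gave -0.19 to 0.23. The same gave -0.14 to 0.29 at day 210 against day 30 and -0.043 to 0.15 at day 210 against day 90. With no minimum, day 90 against day 30 was 0.00065 by DESeq2, 0.00081 with RLE factors, 0.022 with the block, and 0.240, 0.043 and 0.056 without day 30 replicate 3, day 90 replicate 1 and day 90 replicate 2. Without day 210 replicate 2 it was -0.047 at day 210 against day 30 and -0.052 at day 210 against day 90, and without day 90 replicate 2 it was -0.0048 at day 210 against day 90. MSTRG.14410 had 0.30 at day 210 against day 90 without day 90 replicate 1, and the outer Pig. locus -0.32 at day 90 against day 30 without day 30 replicate 1. The cause of these differences was not tested. At the later ages the 11 loci other than MSTRG.14420 together held 84 to 384 reads per library, which limits how far their levels can be told apart.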
